A study of Mus musculus with 8 samples.

Results

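The genes described here were oviductal glycoprotein 1 (Ovgp1), the chitinase-like genes Chi3l1, Chi3l3 and Chi3l4, the chitinase Chia and the mucins Muc1, Muc4, Muc16 and Muc20, in the oviduct of adult mice. They were found by their names on the array: 8 of the 9 genes had a probe under the listed name, 15 probes in all, among 27962 gene names and 41174 probes. Muc16 had no probe under that name, and its 2 probes were found under 1110008I14Rik, which RefSeq lists as an older name of Muc16. They are given apart from the 15 in every count. RefSeq now calls the chitinase genes Chil1, Chil3, Chil4 and Chia1, and the names of the array are kept here.

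Oviducts came from 8 female CD-1 mice on GD2 (pregnancy day 2, 48 hr after hCG), at 6 to 8 weeks of age, after subcutaneous injections on PND1 to PND5. By the paper's methods, the adult females were superovulated with equine chorionic gonadotropin and then human chorionic gonadotropin (hCG), and mated. The 4 controls received corn oil and the 4 Gen-treated mice received the phytoestrogen genistein (Gen) in corn oil at 50 mg/kg/day. The embryos had been removed, and RNA of the whole oviduct was hybridised to arrays with 1 dye. All controls were on 1 slide and all Gen-treated mice on the other, and the effects of slide and treatment cannot be told apart.

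Ovgp1 is a chitinase family member without enzyme activity that the secretory cells of the oviduct epithelium release under estrogen and that binds the zona pellucida of oocytes and embryos. Chi3l1, Chi3l3 and Chi3l4 are lectins that bind chitin or other sugars and cannot cleave them. Chi3l3 is best known as a product of alternatively activated macrophages, and Chi3l1 is made by macrophages, neutrophils and some epithelia. Chia is the acidic chitinase that cleaves chitin. Muc1, Muc4, Muc16 and Muc20 span the cell membrane and hold a layer of glycans at the epithelial surface, and Muc1 is known to follow the ovarian steroids in the uterus.

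Signals below are scanner intensities scaled to a common level of the arrays, and a log2 fold change is Gen minus control. Probes of a gene are numbered by brightness, the brightest first. The signal before scaling at the 75th percentile was 1908 to 2432 on control arrays and 2149 to 3772 on Gen arrays, where Gen 3 stood highest. Controls had 25391 to 28949 probes well above background and Gen arrays 29539 to 31486, with no overlap. All 15 probes were well above background on the 4 Gen arrays, and 12 of them on all 8 arrays. The other 3 were Muc4 probes that reached this level on 2 of 4 control arrays. As a check of the tissue, both Ovgp1 probes were well above background on every array and all 12 genes listed for ciliated cells on every array of at least one treatment.

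Of the 15 probes, 1 was higher in Gen-treated mice at an adjusted p under 0.05, that of Chi3l3, and 0 were lower. The background was 2.17% of 41173 probes higher and 14.0% lower. Among the 28966 probes that all 4 arrays of either group had well above background, 2.83% were higher and 2.19% lower, so the lower calls of the array lay mostly in dim probes. With the unadjusted p, 1 of the 15 was higher at a threshold of 0.01, against 2.56% of all probes. The groups did not overlap for 2 of the 15, both higher in Gen-treated mice, against 4.51% of 41040 probes higher and 18.0% lower. The median log2 fold change of the 15 probes was 0.22, beside -0.06 over all probes tested and 0.02 over those well above background.

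**Figure D1:**
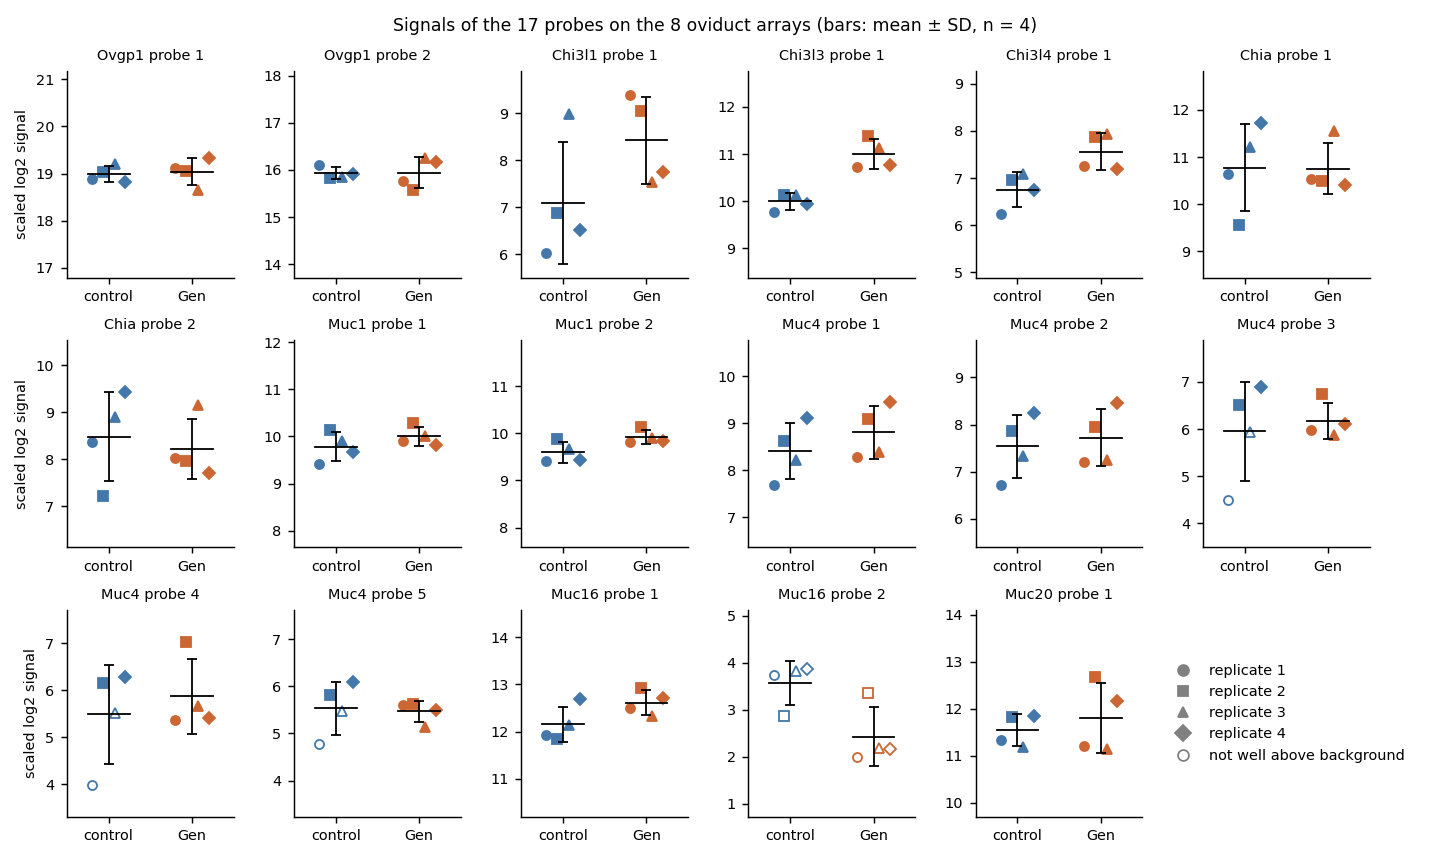
Scaled log2 signal of each of the 17 probes on the 4 control (blue) and 4 Gen (orange) arrays, with the mean and SD in black; every panel spans the same number of log2 units, and open symbols are not well above background. The groups are apart for Chi3l3 and Chi3l4, and the control arrays are spread widest for Chi3l1, over 7.76-fold.

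Ovgp1, the major glycoprotein of oviduct secretion, did not differ detectably between the groups. The scaled signal of its brightest probe was 480670, 536533, 601738 and 463135 on control arrays 1 to 4 and 570254, 545830, 411755 and 654968 on Gen arrays 1 to 4. The groups overlapped, and both the lowest and the highest array were of Gen-treated mice. The log2 fold change was 0.06 with an SE of 0.17 and a 95% confidence interval of -0.33 to 0.44 (adjusted p = 0.863).

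This probe lay close to the ceiling of the scanner. Its mean spot signal before scaling was 67.5% to 73.6% of the saturation value on control arrays and 72.4% to 94.5% on Gen arrays. It was marked saturated on Gen 3 alone, with 6 saturated pixels. After scaling, that array, the one with the highest 75th percentile, was the lowest of the 8 for this probe. Before scaling the probe spanned 1.47-fold over the arrays.

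The second Ovgp1 probe was far below the ceiling, at 7.61% to 19.3% of the saturation value, and carries the unsaturated measurement. It lies at chr3:105795980-105796039 on the plus strand in mm7, the build of the array design, and its sequence is shown because the statement on Ovgp1 rests on it.
Ovgp1 probe 2: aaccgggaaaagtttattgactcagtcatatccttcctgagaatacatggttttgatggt
Its scaled signal was 70930, 58492, 58996 and 61784 on control arrays 1 to 4 and 56054, 48438, 78385 and 73986 on Gen arrays 1 to 4. Gen 3, the lowest array for the saturated probe, was the highest for this one, and Gen 2 was the lowest. The control arrays lay within the range of the Gen arrays, which spanned 1.62-fold against 1.21-fold in controls. The log2 fold change was 0.01 with an SE of 0.18 and a 95% confidence interval of -0.39 to 0.42 (adjusted p = 0.969). The sign of both Ovgp1 probes turned when arrays were scaled to the median, to -0.01 and -0.05.

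**Figure D2:**
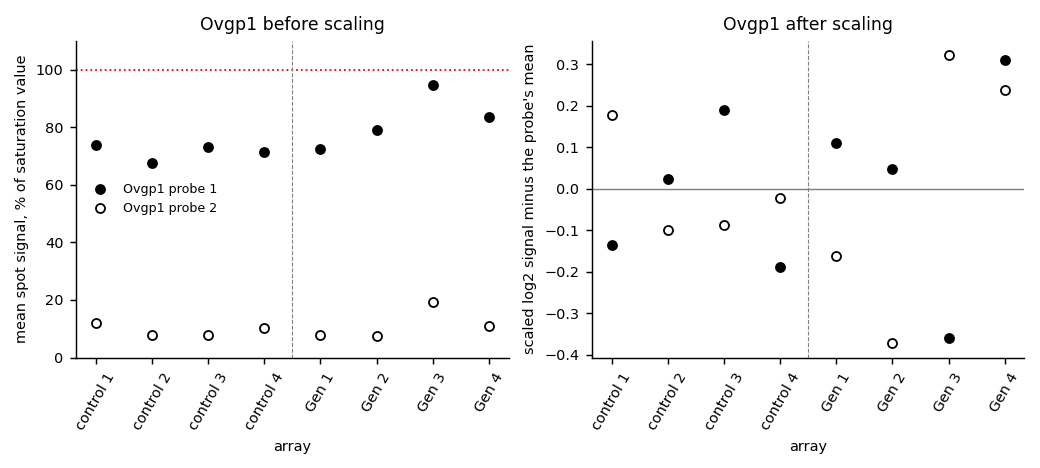
Ovgp1 on the 8 arrays: on the left the mean spot signal as a percentage of the saturation value (dotted line at 100%), on the right the scaled log2 signal minus the mean of the probe. Probe 1 (filled) sits between 67.5% and 94.5% of the saturation value and probe 2 (open) between 7.61% and 19.3%; on Gen 3 the probes deviate in opposite directions after scaling.

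Across the 8 arrays, the named genes with the pattern most like that of Ovgp1 probe 1 were Cnot3 (Pearson r = 0.987), Grn (0.964) and Rack1 (0.959), out of 22259 probes of other genes well above background on every array. For Ovgp1 probe 2 they were Zbtb8os (0.983), Ints3 (0.974) and Hs2st1 (0.972). No gene appeared in both sets of 3. The arrays share a slide within each group, and these values are a description of 8 arrays.

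Chi3l3 was about 2 times higher in Gen-treated mice, and its neighbour Chi3l4 had the same direction without passing the test. Chi3l3, read by 1 probe at chr3:105965855-105965914 on the minus strand of mm7, had scaled signals of 868, 1126, 1120 and 983 on control arrays 1 to 4 and 1683, 2670, 2246 and 1731 on Gen arrays 1 to 4. Every Gen array was above every control array, with Gen 2 highest and control 1 lowest. The fold was 2.01, a log2 fold change of 1.01 with an SE of 0.18 and a 95% confidence interval of 0.59 to 1.42 (adjusted p = 0.0236). An exact two-sided permutation test of this probe alone over the 35 divisions of 8 arrays gave p = 0.0286, the smallest that 4 against 4 allows. The size held when any array was left out, between 0.88 and 1.10. The adjusted p passed 0.05 without control 1 (0.0591), Gen 1 (0.0633), Gen 2 (0.0675) or Gen 3 (0.0603), and it was above 0.05 in 5 of 10 other settings of the processing, with a range of 0.0227 to 0.0953 over the 10.

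Chi3l4, a close copy of Chi3l3, had scaled signals of 74.9, 124, 136 and 108 on control arrays and 153, 234, 245 and 146 on Gen arrays. All 4 Gen arrays were above all 4 control arrays, the nearest being Gen 4 at 146 and control 3 at 136. The log2 fold change was 0.81 with an SE of 0.25 and a 95% confidence interval of 0.23 to 1.39, and it missed the threshold (adjusted p = 0.0685). The array design assigns the Chi3l4 probe also to the RefSeq transcript of Chi3l3, so the 2 signals cannot be taken as separate measurements of the 2 genes. The best ungapped match of the 2 probes held 8 identical of 10 aligned bases, so they read different stretches.

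The sequences upstream of the 2 genes are shown because the genes are close copies. The shared direction of the 2 probes is no separate reason, since both are assigned to the Chi3l3 transcript. In the RefSeq windows of GRCm38.p6, the 250 bases before the annotated start were chr3:106167565-106167814 for Chi3l3 and chr3:106219480-106219729 for Chi3l4, both on the minus strand. Capitals mark the 1 match to TTCNNNGAA, the form that STAT proteins bind.
Chi3l3: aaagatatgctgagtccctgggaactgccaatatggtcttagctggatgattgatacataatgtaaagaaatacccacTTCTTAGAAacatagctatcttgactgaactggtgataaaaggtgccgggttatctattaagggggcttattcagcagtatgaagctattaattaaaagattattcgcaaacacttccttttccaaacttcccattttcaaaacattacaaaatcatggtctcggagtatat
Chi3l4: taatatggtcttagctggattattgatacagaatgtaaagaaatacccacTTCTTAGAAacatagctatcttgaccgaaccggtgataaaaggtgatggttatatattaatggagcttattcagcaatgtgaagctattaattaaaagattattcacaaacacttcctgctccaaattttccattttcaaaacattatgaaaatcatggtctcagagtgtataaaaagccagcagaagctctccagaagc
A global alignment of the pair had 201 identical of 221 aligned bases, or 91.0%, with 58 gap positions. The next pair among the 36 pairs of the 9 genes, Chi3l4 and Chia, had 150 identical bases.

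The match stood 172 bases before the annotated start in Chi3l3 and 200 bases before it in Chi3l4, in the same stretch of the alignment. None of the other 7 genes held TTCNNNGAA in this window, against 7.02% of all 32851 promoter windows of this length. The form with 4 bases between TTC and GAA, which STAT6 prefers, was in 0 of the 9 windows and in 5.85% of all. The palindromic estrogen response element was in 0 of the 9 and in 0.0639% of all, and its half-site GGTCA or TGACC was in 4 of the 9, those of Ovgp1, Chi3l4, Chia and Muc20, and in 35.2% of all. ACANNNTGT, the core of the palindrome that progesterone and androgen receptors bind, was in 4 of the 9 (Chi3l3, Chi3l4, Chia and Muc1) and in 5.84% of all. TATAAA, on the strand of the gene, was in 4 of the 9 (Chi3l4, Chia, Muc1 and Muc4) and in 7.59% of all. The Chi3l3 window ends inside the stretch that lines up with TATAAA in Chi3l4, so a match there would be cut off. The other motifs read the same on both strands or were searched on both.

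Of the markers of macrophages, the cells best known for Chi3l3, 4 of 14 passed the test, all higher, beside the 2.83% given above. All 14 were well above background, 13 had a positive log2 fold change, and the median was 0.39. The receptor gene Emr1 had 6103 to 7572 in controls and 8922 to 13310 in Gen-treated mice, with a log2 fold change of 0.66 (adjusted p = 0.0246). The pore-forming gene Mpeg1 had 8199 to 9414 against 12180 to 17200 (log2 fold change 0.71, adjusted p = 0.0236). The integrin Itgam rose by 0.74 (adjusted p = 0.0236). Each of these 3 genes has another probe, with log2 fold changes of 0.57 for Emr1, 0.82 for Mpeg1 and 0.23 for Itgam. Arginase Arg1 rose by 1.03 (adjusted p = 0.0314), with control 1 at 486 above Gen 1 at 466. The Arg1 call was lost on leaving out any 1 array. The complement genes C1qa and C1qb had 0.07 and 0.13, the scavenger receptor Cd163 0.04 and the lipopolysaccharide receptor Cd14 -0.26, and none of these passed. Retnla, which alternatively activated macrophages make together with Chi3l3, ranged from 549 to 5260 in controls and 896 to 3251 in Gen-treated mice (log2 fold change 0.06, adjusted p = 0.972). The summed signal of the 14 genes was 157000 to 238000 in controls and 215000 to 289000 in Gen-treated mice, and these ranges overlapped. Most of the sum was Lyz2, with 91490 to 136200 in controls and 130100 to 172200 in Gen-treated mice (log2 fold change 0.47, adjusted p = 0.0903). With dim probes left out of the fit, 2 of the 4 calls remained, Itgam and Mpeg1. In RNA of whole oviduct, more cells of a type and more RNA per cell cannot be told apart, and the part of these cells in the Chi3l3 result was not tested.

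The genes whose pattern over the 8 arrays was most like that of Chi3l3 were Auts2 (Pearson r = 0.99), Hnrnpul1 (0.986) and Adgre4 (0.975), out of 22260 probes. Adgre4, a receptor of macrophages, had a log2 fold change of 1.42 (adjusted p = 0.0236), and those of Auts2 and Hnrnpul1 were 0.38 and 0.35. The groups differ in Chi3l3, so any gene with a clean difference between them scores high on this measure.

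Chi3l1 had the widest spread of the 15 probes and did not pass the test. Its scaled signals were 65.0, 117, 504 and 92.1 on control arrays 1 to 4 and 671, 526, 187 and 215 on Gen arrays 1 to 4. Control 3 was above Gen 3 and Gen 4, and the other 3 controls were below every Gen array. The log2 fold change was 1.33 with an SE of 0.69 and a 95% confidence interval of -0.27 to 2.92 (adjusted p = 0.259). Without control 3 it was 1.96 (adjusted p = 0.0395), and over the other 7 arrays left out in turn the adjusted p ranged up to 0.441.

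Of the 10 neutrophil genes that all 4 arrays of either group had well above background, 5 were highest on control 3, S100a8 and S100a9 among them, and 5 on other arrays, while Ngp was lowest on control 3. S100a8 had 2468 there, against 47.4, 260 and 442 on the other control arrays. On Gen arrays 1 to 4 it had 432, 1056, 1835 and 2352. S100a9 had 24570 there, against 336 to 4367 on the other controls. On Gen arrays 1 to 4 it had 3637, 12970, 15360 and 10550. Gen 1, the highest of the 8 for Chi3l1, was the lowest Gen array for S100a8 and for S100a9. Control 1 was the lowest of the 8 for Chi3l1 and for 5 of the 10 neutrophil genes. Of the 10, 7 had a positive log2 fold change, 0 passed the adjusted threshold, and the median was 0.66. Their summed signal, 232000 to 417000 in controls and 384000 to 456000 in Gen-treated mice, was nearly all Ltf, lactoferrin, which epithelia also secrete (229000 to 412000 and 362000 to 450000). Without Ltf the sum was 3600 to 30300 in controls and 6140 to 22700 in Gen-treated mice, which overlapped. Elane and Fcnb were well above background on no array. Mpo of the same neutrophil list was on all 4 control and all 4 Gen arrays (145 to 518 and 128 to 351). Ctsg was on 3 control and 4 Gen arrays. The part of these cells in the Chi3l1 values was not tested.

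Chia varied among the mice of a group, with no detectable difference between the groups. Its brightest probe gave 1585, 754, 2359 and 3356 on control arrays and 1489, 1438, 3024 and 1362 on Gen arrays. Its second probe gave 329, 150, 476 and 691 on control arrays and 262, 251, 569 and 210 on Gen arrays. Both probes had control 4 highest and control 2 lowest of the 8, and Gen 3 highest of the Gen arrays. Controls spanned 4.45-fold on the first probe and 4.62-fold on the second. The log2 fold changes were -0.03 with an SE of 0.47 (95% confidence interval -1.11 to 1.06) and -0.26 with an SE of 0.50 (-1.41 to 0.89). The adjusted p values were 0.980 and 0.779. The sign of the first turned to 0.22 with no scaling between arrays, and both signs turned on leaving out control 4, to 0.29 and 0.06.

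The Chia and Chi3l4 probes are shown because they had the longest match among the 6 pairs of 4 probes of this family; the other pairs aligned over 5 to 18 bases. Of 44 bases aligned without gaps, from base 2 of the Chi3l4 probe and base 14 of the Chia probe, 30 were identical, and capitals mark them. In mm7 the Chi3l4 probe spans chr3:106022134-106022413 on the minus strand, across more than its own length, and Chia probe 2 lies at chr3:105946793-105946852 on the plus strand.
Chi3l4 probe 1: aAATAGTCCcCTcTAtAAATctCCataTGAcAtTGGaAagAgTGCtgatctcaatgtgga
Chia probe 2: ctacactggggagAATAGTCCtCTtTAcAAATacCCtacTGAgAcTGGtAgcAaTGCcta
Over all arrays, control 4 was highest for Chia probe 2 and Gen 3 for Chi3l4. Within the Gen group, Gen 3 was the highest and Gen 4 the lowest for both probes. Whether the 2 probes share signal was not tested. The probes of Ovgp1, Chia, Chi3l3 and Chi3l4 lie within 226434 bases of chromosome 3, whereas the Chi3l1 probe lies on chromosome 1, at chr1:134079656-134079715. Of these neighbours, Chi3l3 and Chi3l4 had groups that did not overlap, and Ovgp1 and Chia had groups that did; differences between genes were not tested.

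**Figure D3:**
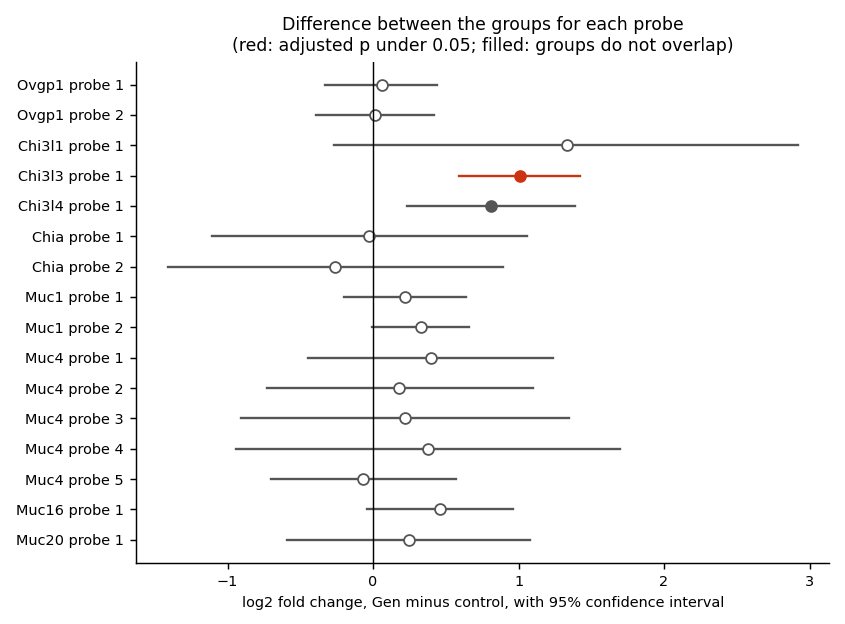
Log2 fold change, Gen minus control, with its 95% confidence interval for the 16 probes that were well above background on any array (n = 4 mice a group). Chi3l3 (red) has an interval of 0.59 to 1.42 and an adjusted p of 0.0236; filled symbols mark Chi3l3 and Chi3l4, whose groups do not overlap, and the interval of Chi3l1, -0.27 to 2.92, is the widest.

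None of the mucins spanning the membrane passed the test. Muc1, a mucin of nearly all glandular epithelia, had 682, 1121, 963 and 817 on control arrays and 958, 1243, 1035 and 906 on Gen arrays with its first probe. Its second probe gave 684, 946, 816 and 690 on control arrays and 907, 1134, 955 and 914 on Gen arrays. Control 1 was the lowest and Gen 2 the highest array of both, and the groups overlapped through control 2 and, on the first probe, control 3. The probes lie at chr3:89357452-89357511 and chr3:89357590-89357747. The log2 fold changes were 0.22 with an SE of 0.18 (adjusted p = 0.476) and 0.33 with an SE of 0.15 (95% confidence interval -0.01 to 0.66, adjusted p = 0.193).

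Muc16, the large mucin that binds mesothelin, had 3889, 3698, 4523 and 6593 on control arrays and 5817, 7785, 5118 and 6707 on Gen arrays with the brighter of its 2 probes, at chr9:18360158-18360217. Control 4 lay above Gen 1 and Gen 3, and the other controls lay below every Gen array. The log2 fold change was 0.46 with an SE of 0.22 and a 95% confidence interval of -0.04 to 0.96 (adjusted p = 0.209). Without control 4 it was 0.64 (adjusted p = 0.0489). The other probe, at chr9:18424054-18424113, was well above background on 0 of 8 arrays, with signals of 4.0 to 14.5, and gives no fold. Mesothelin (Msln) had a log2 fold change of 0.20 (adjusted p = 0.687), and of 7 mesothelial genes 5 were positive and 0 passed the adjusted threshold, with a median of 0.12.

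Muc4, which binds the receptor ErbB2, had 5 probes along 27175 bases of chromosome 16. Its brightest probe gave 205, 393, 299 and 548 on control arrays and 309, 546, 337 and 697 on Gen arrays, and the second gave 105, 232, 160 and 302 on control arrays and 147, 247, 153 and 354 on Gen arrays. Control 1 was the lowest array of all 5 probes, while the highest was control 4 for 2 probes, Gen 4 for 2 and Gen 2 for 1. The log2 fold changes of the 5 ran from -0.07 to 0.40, with SEs of 0.28 to 0.57 and adjusted p of 0.531 to 0.903. Probes 3, 4 and 5 were well above background on 2 of 4 control arrays, those of control 2 and control 4, and on all Gen arrays, so their values on control 1 and control 3 are near background. Without control 1, probes 2, 3 and 4 turned negative, to -0.09, -0.27 and -0.12.

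Muc20, a mucin that binds the receptor Met, lies next to Muc4, its probe 3692 bases from the last Muc4 probe and on the opposite strand. It gave 2579, 3605, 2334 and 3692 on control arrays and 2378, 6506, 2252 and 4552 on Gen arrays. Gen 2 and Gen 4 were the highest of the 8 and Gen 3 the lowest, so that the Gen arrays spanned 2.89-fold against 1.58-fold in controls. The log2 fold change was 0.25 with an SE of 0.36 and a 95% confidence interval of -0.59 to 1.08 (adjusted p = 0.707), and it turned to -0.05 without Gen 2. On Gen arrays, the order from the highest was Gen 2, Gen 4, Gen 1 and Gen 3 for Muc20 and Gen 4, Gen 2, Gen 3 and Gen 1 for Muc4 probe 1. The receptor Met, read by a probe named AI838057 on the array, rose by 0.78 with an SE of 0.19 (adjusted p = 0.0256). Its other probes had log2 fold changes of 0.84 and 0.08. The adjusted p was 0.0765 with dim probes left out. With each array left out in turn, it stayed under 0.05 in 1 of 8 fits.

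**Figure D4:**
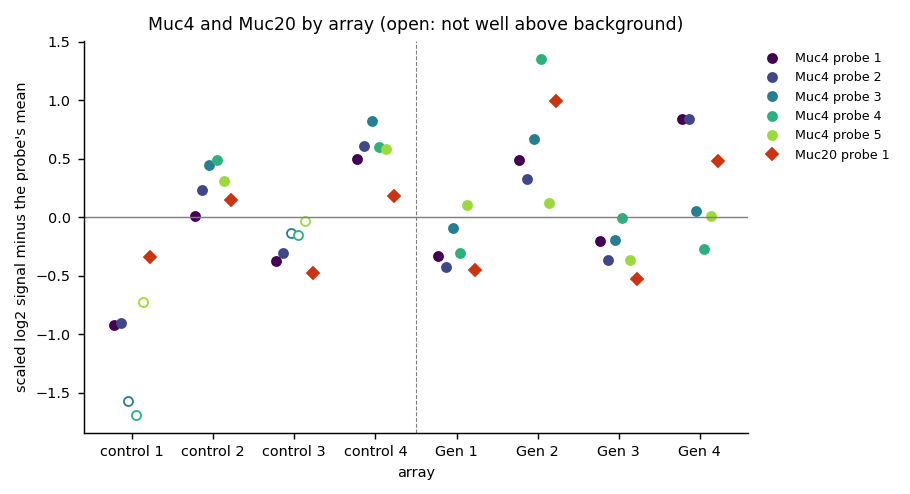
Scaled log2 signal minus the mean of each probe for the 5 Muc4 probes (circles) and the Muc20 probe (diamonds) on each array; open symbols are not well above background. All 5 Muc4 probes are lowest on control 1, Muc20 is highest on Gen 2, and neither gene is separated by the dashed line between the groups.

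Other genes of mucus and of the chitinase family were taken from 6 lists, with 1 probe a gene, the brightest. Of 75 genes listed, 69 had a probe and 59 had one that all 4 arrays of either group showed well above background. Of the 59, 5 were higher and 5 lower at an adjusted p under 0.05, beside the 2.83% and 2.19% given above. Muc5b and Esr2, among the higher, entered the 59 through the Gen arrays only, so the filter favoured their being called higher. The 2.83% came through the same filter. With dim probes left out of the fit, 2 of the 10 calls remained, Spdef and Fut2, and the adjusted p of the 10 ran up to 0.117. Over the 28966 probes that this fit keeps, calls went from 1454 to 321. All 10 lost the call on leaving out at least 1 array, and 3 of them, Muc5b, C1galt1 and Gcnt3, lost it whichever array was left out.

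Of the other mucins, 6 of 11 measured were well above background, and 1 was called, Muc5b. This gel-forming mucin went from a mean signal of 46.4 in controls, where 2 of 4 arrays were well above background, to 206 in the Gen group. Its log2 fold change was 2.15 with an SE of 0.61 (adjusted p = 0.0493, and 0.117 with dim probes left out). The median of the 6 was 0.07. The gel-forming mucin Muc2, which was well above background on 2 control and 3 Gen arrays, had -1.39 (adjusted p = 0.0236) and lay near background in both groups. Of the other chitinase family, 0 of 5 genes passed the adjusted threshold, 3 were positive, the median was 0.07, and the gene farthest from 0 was Chil6 at -0.86 (adjusted p = 0.442).

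Of 23 enzymes that build the glycans of mucins, 3 were called and the median was -0.05. The core enzyme C1galt1 rose by 0.47 (adjusted p = 0.0428). Gcnt3, which makes core branches, had -0.79 (adjusted p = 0.0425) and the fucosyltransferase Fut2 had -0.56 with an SE of 0.10 (adjusted p = 0.0236). Of 11 genes of mucous secretory cells, 2 were called, in opposite directions, and the median was 0.38. Agr2, a protein disulfide isomerase needed for mucin assembly, went from a mean signal of 26500 to 60100, a log2 fold change of 1.18 with an SE of 0.24 (adjusted p = 0.0236, and 0.0580 with dim probes left out). Spdef, a transcription factor that drives mucous cells, had -0.81 with an SE of 0.12 (adjusted p = 0.0236, and 0.0274 with dim probes left out), from 4960 to 2820.

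Of 10 binding partners of mucins and Chi3l1, Met rose as given above and Il13ra2, a receptor of Chi3l1 and of interleukin 13, had -2.04 with an SE of 0.55 (adjusted p = 0.0397, from a mean signal of 212 to 51.4). The median was 0.01. Tmem219, which pairs with Il13ra2 at Chi3l1, had -0.19 (adjusted p = 0.324).

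Of the 4 steroid hormone receptors, 1 was higher and 1 lower. Esr2, the beta estrogen receptor, was well above background on 0 of 4 control arrays and on all Gen arrays, where it had 190, 394, 80.5 and 41.6. It was at least 3.16-fold higher in Gen-treated mice (adjusted p = 0.0286), counted against the lowest signal well above background on each control array. The adjusted p was 0.0885 with dim probes left out, and with normexp background correction the log2 fold change was 1.03 (adjusted p = 0.244), below that bound. The progesterone receptor Pgr had -0.64 (adjusted p = 0.0460) and the estrogen receptor Esr1 had -0.41 (adjusted p = 0.0793). The granulosa cell gene Inha moved with Esr2, from 384 to 1297 in controls to 10140, 8248, 2687 and 1713 on Gen arrays 1 to 4 (log2 fold change 2.54, adjusted p = 0.0319). Of 8 genes of cumulus and granulosa cells 7 were positive and 1 was called, with a median of 0.45. Their summed signal was 3070 to 7270 in controls and 7550 to 29600 in Gen-treated mice, and much of it was Inha and Star. Star had 1228 to 4391 in controls and 2584 to 17160 in Gen-treated mice, which overlapped (adjusted p = 0.103). The log2 fold changes of Has2, Tnfaip6, Ptx3, Inhba and Fshr were 0.02, -0.09, 0.15, 0.40 and 0.49. Fshr was well above background on 1 of 4 control arrays. Amh was so on 0 of 4 control arrays and all Gen arrays. Counted as for Esr2, Amh was at least 2.71-fold higher, and it missed the threshold (adjusted p = 0.0547). Cyp19a1, well above background on 0 control and 3 Gen arrays, is not among the 8. The part of cumulus and granulosa cells in the Esr2 values was not tested.

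**Figure D5:**
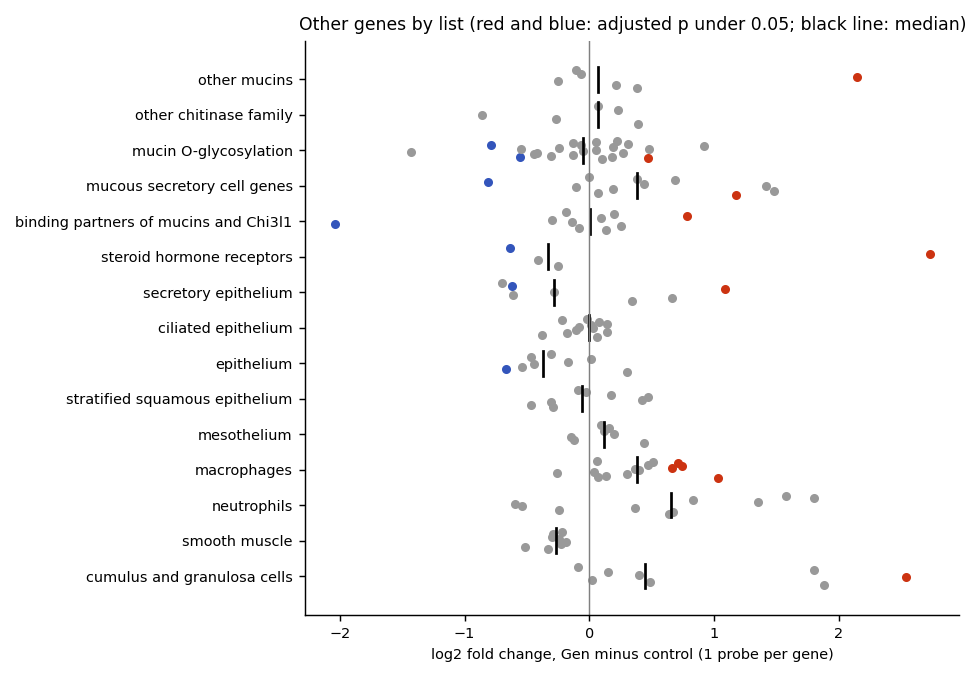
Log2 fold change, Gen minus control, of the genes of 6 related and 9 marker lists (1 probe a gene, well above background on the 4 arrays of either group); red and blue mark an adjusted p under 0.05 and black lines the median of each list. Medians lie between -0.38 for the epithelium list and 0.66 for the neutrophil list.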

How the data were processed

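The authors deposited, for each of 8 arrays (4 control and 4 Gen, 1 mouse each), the spot table of Agilent Feature Extraction 9.5, per the labels and file headers. The deposited processed signal is a linear intensity, background-adjusted by that software and not scaled between arrays. The flags for saturation, background and outliers, and the pixel numbers, came from the same tables. The deposited series table repeats the processed intensity and was not used. Positions are as the array design gives them, on mm7. Control spots (1639) and outlier spots were left out, spots of 1 probe were averaged as log2 signals, and arrays were brought to a common 75th percentile. Groups came from the titles. Gen and control were compared with limma 3.58.1 (lmFit and eBayes) in R 4.3.3, with Benjamini-Hochberg adjustment over 41173 probes, after tests on simulated data. 4 mice a group limit the precision, and p-values measure the spread between these mice.

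Promoters came from RefSeq tables of GRCm38.p6, aligned with Biopython 1.88. Motifs were searched in the 250 bases before each start. The genes and lists were chosen with earlier results of these data known, and 1 gene of the macrophage list is not reported here. Named from each list were the called genes with the largest change, at most 4, and otherwise the 1 gene with the largest. Retnla, C1qa, C1qb, Cd163, Cd14, S100a9, Ngp, Ltf, Elane, Fcnb, Muc2, Msln, Tmem219 and Esr1 fall outside this rule and were named after their values were seen. The same holds for Lyz2, Mpo, Ctsg, Has2, Tnfaip6, Ptx3, Amh, Fshr, Inhba, Cyp19a1 and Star. The alternatives were quantile, median and no scaling, normexp correction, a floor, dim probes left out, outliers kept, a trended robust fit, the methods' t-test, a replicate block, averaging the probes of each gene, and leaving out each array. The paper's methods name Student's t-test for comparing control and Gen-treated samples, whereas its array calls came from an analysis of variance. Replicate numbers came from the titles, which do not say that same-numbered mice are pairs. Deviations of same-numbered arrays correlated at -0.079, 0.105, -0.021 and -0.183 over 24920 probes, so these arrays were not taken as pairs.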

Additional observations from a re-analysis of the deposited data

Results flagged for a closer look

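Each group of 4 arrays was searched for an array whose distance to its nearest neighbour took most of the range of the group (Dixon's ratio), in 34 groups (17 probes, 2 groups each), and 3 passed; chance alone passes about 1 group in 20. The brightest probe of Chia had Gen 3 far above the other Gen arrays (ratio 0.888, 3024 against 1362 to 1489), and its second probe had the same array highest. The dimmer Muc16 probe, which was well above background on no array, had control 2 far below the other controls (0.876) and Gen 2 far above the other Gen arrays (0.849).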

How the results depend on the processing

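The count of members at an adjusted p under 0.05, 1 of 15, was 0 with quantile normalization, with no scaling between arrays, with a floor of 24.7, with the methods' t-test and with the replicate block, and 0 to 2 on leaving out 1 array. Chi3l3 then had an adjusted p of 0.0661, 0.0584, 0.0953, 0.0630 and 0.0791 in that order, with log2 fold changes of 0.99, 1.25, 1.01, 1.01 and 1.01. Over all probes the number at an adjusted p under 0.05 moved too, from 6674 to 178 with quantile normalization, 640 with no scaling, 23 with the floor, 0 with the methods' t-test (6098 at its unadjusted p under 0.01), 1 with the replicate block, and 1 without Gen 3, 2 without Gen 2, 3 without Gen 1 and 97 without control 1. The count at an unadjusted p under 0.01, 1 of 15, was 3 with no scaling, 2 with dim probes left out, 2 with the trended robust fit and 2 with the replicate block, 1 with the methods' t-test, and 1 to 2 on leaving out 1 array. The replicate block, a paired fit on numbers that did not pair the arrays, ended no other call among the members, since Chi3l3 was the only one.

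Signs turned only in log2 fold changes that missed the threshold. Scaling to the median gave -0.01 and -0.05 for Ovgp1 probes 1 and 2. Normexp gave -0.02 and -0.02 for these, and -0.01, -0.09 and -0.08 for Muc4 probes 2, 3 and 4. No scaling gave 0.22 for Chia probe 1 and 0.17 for Muc4 probe 5. The mean of both Muc16 probes gave -0.34, since it holds the probe below background. Leaving out 1 array gave -0.04 to 0.18 and -0.09 to 0.14 for the Ovgp1 probes, -0.43 to 0.29 and -0.68 to 0.06 for those of Chia, -0.09 to 0.42, -0.27 to 0.53, -0.12 to 0.64 and -0.32 to 0.12 for Muc4 probes 2 to 5, and -0.05 to 0.46 for Muc20. The cause was not tested. Of 293 values over the members' alternatives, 252 kept their direction and their side of the threshold. Of the 10 calls in the related lists, 2 remained with dim probes left out. No member had a bound, so the planned recalculation of bounds under normexp had nothing to apply to. The number of arrays and the signal over background limit the dim probes of Chi3l1, Chi3l4 and Muc4, and saturation limits Ovgp1 probe 1.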

Other observations

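The markers of other cell types in the oviduct gave the following values. Of 7 secretory epithelium genes, Slpi, a protease inhibitor of mucosal secretions, rose by 1.09 with an SE of 0.17 (adjusted p = 0.0236) and Sox17, a transcription factor of oviduct epithelium, had -0.62 (adjusted p = 0.0394, and 0.0993 with dim probes left out); the median was -0.28. Of 12 genes of ciliated cells, 0 passed the adjusted threshold and the median was -0.01, with Cdhr3 farthest from 0 at -0.38 (adjusted p = 0.639). Of 8 epithelial genes, 1 was called, the tight junction gene Cldn3 at -0.67 (adjusted p = 0.0287, and 0.0834 with dim probes left out), 2 were positive, and the median was -0.38. Their summed signal was 655000 to 797000 in controls and 547000 to 673000 in Gen-treated mice.

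Of 8 smooth muscle genes, 0 were positive and 0 passed the adjusted threshold, with a median of -0.26 and Actg2 farthest from 0 at -0.52 (adjusted p = 0.138). Of 14 genes of stratified squamous epithelium, 5 were well above background on no array (Krt6a, Ivl, Dsg3, Sprr1b and Krtdap), and the 8 well above background in a group had a median of -0.06, with Krt5 farthest from 0 at 0.47 (adjusted p = 0.579). In the mesothelium list the gene farthest from 0 was Bnc1 at 0.44 (adjusted p = 0.323).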
